A study of Mus musculus with 15 samples.

Results

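Bcl11a and Bcl11b encode a pair of closely related zinc finger transcription factors, also named Ctip1 and Ctip2. Both are best known as repressors: BCL11A silences embryonic and fetal globin genes in red cell precursors, and BCL11B fixes T cell identity and marks the deep-layer neurons of the cortex that project to the spinal cord. They recruit the NuRD histone deacetylase complex, were first found as partners of the COUP-TF nuclear receptors, and occur as subunits of the BAF chromatin remodelling complex. The 2 genes were taken as the rows of those names among 24451 genes of the deposited count table. They were chosen by their CPM (counts per 1e6 counts in genes) in all 15 libraries, so their levels and differences are given as a description, with no test.

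The libraries are RNA sequencing of mouse ES-R1 embryonic stem cells at a passage under 20, differentiated over 4 days without serum, in medium holding the N2 and B27 supplements. There were 5 groups of 3 libraries: Vprbp siRNA with Activin A at 25 ng/ml, control siRNA with Activin A at 25 ng/ml, control siRNA with SB, Vprbp siRNA alone, and control siRNA alone. Activin A switches on the Nodal receptor pathway through Smad2 and Smad3, and SB is an inhibitor of its type I receptors, written SB431524 in the sample titles and SB431542 in the series text, at a dose the labels do not state. Every group received an siRNA, no library combines SB with Vprbp siRNA, and all cells are of 1 line. The labels do not say whether replicates were separate cultures, so the spread between libraries may be technical.

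Libraries held 11.1e6 to 15.5e6 counts in genes. Vprbp, the target of the siRNA, averaged 138.3 ± 9.2 CPM (SD, n = 3) in Vprbp siRNA cells with Activin, against 179.1 ± 4.4 CPM in control siRNA cells with Activin. It averaged 122.2 ± 8.9 CPM with Vprbp siRNA alone and 171.0 ± 3.6 CPM with control siRNA alone, so the knockdown of its RNA was partial. The cells still expressed pluripotency genes, whose 8 markers summed to 2887 to 3214 CPM with SB and to 4005 to 4471 CPM in the other groups. With SB against control siRNA alone, 5 of the 8 were lower and 1 higher by edgeR's quasi-likelihood test (adjusted p under 0.05). Of all genes, 22.6% passed the same threshold. Markers of the blood lineages known for these factors were low but not absent: 7 T cell genes summed to 17.3 to 31.8 CPM, most of it Lck, and 6 erythroid genes to 4.03 to 8.94 CPM. Among them, the T cell gene Cd3d and the adult globin genes Hba-a1 and Hbb-bt had a count of 0 in all 15 libraries, which allows up to 0.196 to 0.271 CPM per library (3 counts, counting error only). Replicate 3 of control siRNA alone and replicate 3 of Vprbp siRNA alone lay nearer to the SB group on the first principal component than their replicates (15.6 and 7.27, against 51.1 to 55.8 with SB), and on the second, replicate 1 of the group with both Vprbp siRNA and Activin stood alone at 35.0.

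The promoters of the 2 genes are shown because both RNAs were lower with SB and higher with Activin. The windows run from 250 bases before to 50 bases after a RefSeq start site (GRCm38.p6, the build also called mm10): chr11:24080445-24080744 on the plus strand for Bcl11a and chr12:108003365-108003664 on the minus strand for Bcl11b. Capitals mark the matches to the motifs searched.
Bcl11a: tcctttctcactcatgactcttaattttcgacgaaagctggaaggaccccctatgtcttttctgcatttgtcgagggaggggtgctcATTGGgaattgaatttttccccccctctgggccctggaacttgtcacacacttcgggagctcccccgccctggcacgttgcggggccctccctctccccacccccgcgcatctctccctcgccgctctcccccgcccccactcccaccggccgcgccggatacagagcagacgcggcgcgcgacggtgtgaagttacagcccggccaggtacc
Bcl11b: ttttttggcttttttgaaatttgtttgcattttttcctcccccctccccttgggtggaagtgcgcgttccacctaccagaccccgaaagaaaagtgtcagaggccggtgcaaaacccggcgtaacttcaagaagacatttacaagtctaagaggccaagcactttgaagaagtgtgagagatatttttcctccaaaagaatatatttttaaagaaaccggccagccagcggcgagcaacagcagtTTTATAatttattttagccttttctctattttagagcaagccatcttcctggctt

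The sequences differ in composition. The Bcl11a window is 63.0% G or C with 23 CpG dinucleotides, and the Bcl11b window is 43.0% G or C with 9, where the medians over 32851 RefSeq promoter windows of the same length are 52.7% and 7. On either strand, Bcl11a holds 1 CCAAT box (written ATTGG on the plus strand, starting 163 bases before the start site), a motif present in 37.4% of all windows. Bcl11b holds 1 TATAAA match, on the opposite strand and starting 5 bases before the start site, a motif present in 13.6% of all windows. Neither window holds CAGACA, a longer form of the Smad box core CAGAC (21.0% of windows), or ATCCACA, a core of the Foxh1 site (3.38%). TGACCA, the core bound by BCL11A (13.6%), and CACGTG (7.15%) are also missing from both. None of these motifs overlaps another. The shorter CAGAC was not among the motifs searched. It stands unmarked in both windows, and its share of all windows was not worked out. A missing match says only that these letters are not in these windows, and both genes are annotated to begin further upstream than the start used here.

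Bcl11a (ENSMUSG00000000861.15 in GENCODE M21) lies on the plus strand of chromosome 11 at 24078056 to 24174123 in GRCm38. Bcl11b (ENSMUSG00000048251.15) lies on the minus strand of chromosome 12 at 107910403 to 108003602. The antisense gene 4930538E20Rik shares exon bases with Bcl11a. Whether counting used strand is not stated, so how reads on the shared bases were counted is not known. Another antisense gene, Gm12064, lies within Bcl11a and shares no exon bases with it. In GENCODE M21 no other gene overlaps Bcl11b.

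Bcl11a RNA was lowest with the receptor inhibitor and higher with Activin than without. With SB it was at 1.02, 0.723 and 1.00 CPM in replicates 1, 2 and 3, from only 14, 10 and 14 counts, against 8.35, 9.86 and 6.29 CPM with control siRNA alone. Every SB library lay below every library without addition. The Poisson 95% intervals of the SB libraries reached no higher than 1.71 CPM (these intervals cover counting error only), while the lowest interval with control siRNA alone began at 5.02 CPM. The means were 0.914 ± 0.166 and 8.17 ± 1.79 CPM (SD, n = 3 each), a log2 fold change of -3.15 ± 0.25 (SE of the edgeR fit) or 8.86-fold lower with SB. In bulk samples, fewer cells with the RNA and less RNA per cell cannot be told apart.

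Activin in control siRNA cells went with Bcl11a at 17.3, 20.0 and 21.3 CPM, against 8.35, 9.86 and 6.29 CPM with control siRNA alone. The groups did not overlap. The mean was 19.5 ± 2.0 CPM with Activin, a log2 fold change of 1.25 ± 0.16 or 2.39-fold. The SB comparison uses the same 3 libraries without addition, and set directly against SB the Activin mean was 21.1-fold higher (log2 fold change 4.40 ± 0.23). By size alone, 16 of 14600 genes fell further with SB than Bcl11a.

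Bcl11b was likewise lowest with SB and higher with Activin, with lower mean CPM than Bcl11a in every group but SB. With SB it was at 0.509, 1.01 and 1.58 CPM, from 7, 14 and 22 counts, against 4.14, 2.97 and 5.09 CPM with control siRNA alone. The groups did not overlap, and the SB libraries spread widely among themselves. The means were 1.03 ± 0.53 and 4.07 ± 1.06 CPM (SD, n = 3 each), a log2 fold change of -1.96 ± 0.34 or 3.90-fold lower with SB.

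With Activin, Bcl11b was at 6.50, 8.49 and 8.20 CPM in control siRNA cells, again above all 3 libraries with control siRNA alone. The mean of 7.73 ± 1.07 CPM with Activin was 1.90-fold that of 4.07 ± 1.06 CPM without (log2 fold change 0.92 ± 0.26). Against SB it was 7.41-fold higher (2.89 ± 0.32). Among all genes tested, 18.4% had every SB library below every library with control siRNA alone and 14.0% had every Activin library above, and both members belong to these shares by the values that chose them. In the other direction 18.8% lay wholly above with SB and 13.6% wholly below with Activin. Against SB, 27.2% lay wholly above and 27.6% wholly below with Activin.

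**Figure D1:**
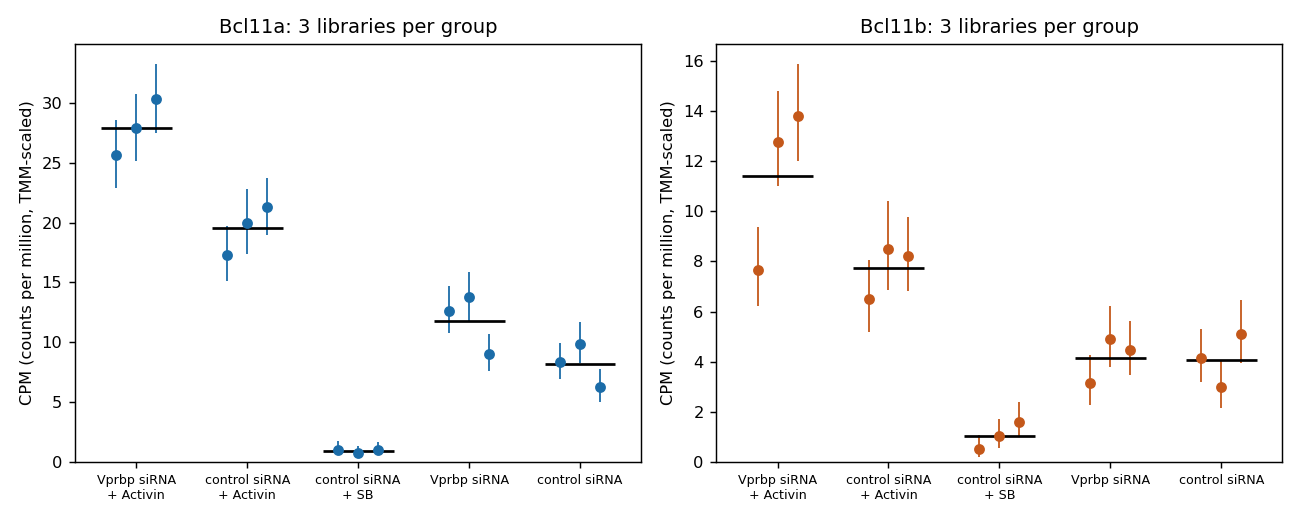
CPM of Bcl11a (left) and Bcl11b (right) in each of 15 libraries by group, with Poisson 95% intervals of the count (vertical bars) and group means (horizontal bars). Bcl11a runs from 0.723 CPM in an SB library to 30.3 CPM in a library with Vprbp siRNA and Activin, and the SB libraries are the lowest for both genes.

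Vprbp siRNA went with more Bcl11a at both Activin levels. Without Activin, Bcl11a was at 12.6, 13.7 and 9.03 CPM with Vprbp siRNA, against 8.35, 9.86 and 6.29 CPM with control siRNA. The ranges overlapped between replicate 3 of Vprbp siRNA and replicate 2 of control siRNA, where 6.64% of all genes lay wholly above and 5.65% wholly below. The means were 11.8 ± 2.5 and 8.17 ± 1.79 CPM (SD, n = 3 each), a log2 fold change of 0.52 ± 0.17. Within replicate numbers, whose libraries deviated together in this comparison, the ratios of Vprbp siRNA to control siRNA were 1.51, 1.39 and 1.43. The 2 libraries of replicate 3, which lay nearest to the SB group, had the lowest Bcl11a of their groups.

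With Activin, Bcl11a was at 25.6, 27.9 and 30.3 CPM in Vprbp siRNA cells and at 17.3, 20.0 and 21.3 CPM in control siRNA cells. Here the groups did not overlap, as was so for 8.38% of all genes in this direction and 9.03% in the other. The log2 fold change was 0.52 ± 0.15, close to that without Activin. The Activin response of Bcl11a in Vprbp siRNA cells was 1.25 ± 0.15, from means of 27.9 ± 2.3 and 11.8 ± 2.5 CPM in groups that did not overlap, as for 11.2% of all genes (10.2% in the other direction). The difference of the 2 Activin responses, Vprbp siRNA minus control siRNA, was -0.0049 ± 0.21 on the log2 scale.

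Bcl11b showed no clear difference in the knockdown without Activin, and its change was not tested against that of Bcl11a. It was at 3.13, 4.88 and 4.45 CPM with Vprbp siRNA and at 4.14, 2.97 and 5.09 CPM with control siRNA. Within replicate numbers the ratios of Vprbp siRNA to control siRNA were 0.757, 1.64 and 0.873. The ranges overlapped almost wholly, and the log2 fold change was 0.035 ± 0.28, within 1 standard error of 0. Its sign turned in 3 of 14 alternative fits, which ran from -0.15 to 0.22.

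With Activin, Bcl11b was at 7.66, 12.8 and 13.8 CPM in Vprbp siRNA cells and at 6.50, 8.49 and 8.20 CPM in control siRNA cells. Replicate 1 of Vprbp siRNA stood below the other two and within the range of control siRNA. That library also held the highest sums of the 5 mesoderm markers (122.6 CPM, against 41.7 and 42.4 CPM in its replicates) and of the 8 trophoblast markers (376.2 CPM, against 226.4 and 184.4 CPM). The part of these cells in the Bcl11b level was not tested. The log2 fold change was 0.57 ± 0.24, and 0.79 without replicate 1 of Vprbp siRNA with Activin. The Activin response of Bcl11b in Vprbp siRNA cells was 1.46 ± 0.26, from 11.4 ± 3.3 and 4.15 ± 0.91 CPM. The difference of the 2 Activin responses was 0.53 ± 0.37.

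**Figure D2:**
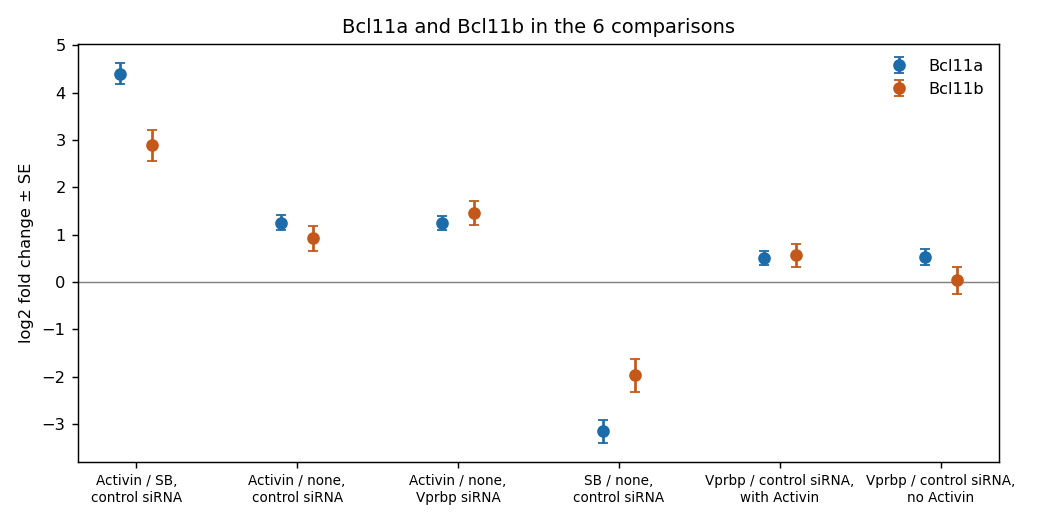
Log2 fold changes of Bcl11a and Bcl11b with their standard errors in 6 comparisons, each named under the axis as one condition over another (none, no addition). The points for Bcl11a run from -3.15 with SB to 4.40 for Activin over SB, those for Bcl11b from -1.96 to 2.89, and in the knockdown without Activin Bcl11a is at 0.52 and Bcl11b at 0.035.

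By their means alone, the 5 groups stood in 1 order for both genes, with some steps that the spread does not separate. From the lowest, the order was SB, control siRNA alone, Vprbp siRNA alone, control siRNA with Activin, and Vprbp siRNA with Activin. For Bcl11a, neighbours in that order did not overlap except Vprbp siRNA alone and control siRNA alone, whose means lay 3.63 CPM apart with a larger SD of 2.46 CPM. For Bcl11b, Vprbp siRNA alone and control siRNA alone (0.0865 CPM apart) and the 2 Activin groups (3.69 CPM apart, larger SD 3.29 CPM) overlapped. Of all genes, 18.4% had every SB library below every library with control siRNA alone, and 18.8% the other way. Between the 2 Activin groups, 8.38% lay wholly above with Vprbp siRNA and 9.03% wholly below. For control siRNA with Activin over Vprbp siRNA alone, no share of all genes was worked out. On the log2 scale the group means of Bcl11a spanned 4.33 with a pooled SD within groups of 0.226, and those of Bcl11b spanned 2.98 with a pooled SD of 0.378. A span as wide was reached by 0.0685% of tested genes for Bcl11a and by 0.438% for Bcl11b.

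Per length, Bcl11a averaged above Bcl11b in 4 of 5 groups. Over 13175 and 8111 bases of merged GENCODE M21 exons, the level of Bcl11a was 2.12 ± 0.18 CPM per kb with Vprbp siRNA and Activin, where Bcl11b was at 1.41 ± 0.41 CPM per kb. With control siRNA alone they were at 0.62 ± 0.14 and 0.50 ± 0.13 CPM per kb. The ratio of Bcl11a to Bcl11b per length was 1.58 ± 0.41 with Vprbp siRNA and Activin, 1.56 ± 0.10 with control siRNA and Activin, 0.687 ± 0.471 with SB, 1.82 ± 0.62 with Vprbp siRNA alone and 1.35 ± 0.65 with control siRNA alone (SD, n = 3 each). The SB ratios, 0.392 to 1.23, overlapped those of control siRNA alone. Those of Vprbp siRNA alone began just above, at 1.25, and those of the Activin groups at 1.34 with Vprbp siRNA and 1.45 with control siRNA. The SB ratio of 1.23 came from 14 and 7 counts, and no counting error was worked out for the ratios. These ratios depend on the exons merged, since the annotation behind the counts is not stated.

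The sums of neural progenitor and of mesoderm markers were, like Bcl11a, lower with SB and higher with Activin. The 8 neural progenitor genes, all of them detected, summed to 564.2 to 615.8 CPM with Vprbp siRNA and Activin, 470.9 to 486.4 CPM with control siRNA and Activin, 218.2 to 253.6 CPM with SB, 355.2 to 498.5 CPM with Vprbp siRNA alone and 232.6 to 381.2 CPM with control siRNA alone. The 5 mesoderm genes, also all detected, summed to 41.7 to 122.6 CPM with Vprbp siRNA and Activin, 32.4 to 41.0 CPM with control siRNA and Activin, 11.6 to 15.5 CPM with SB, 19.0 to 25.1 CPM with Vprbp siRNA alone and 14.7 to 19.7 CPM with control siRNA alone. In both sums replicate 3 of control siRNA alone lay within the SB range. Single neural progenitor genes moved both ways: with SB, Sox1, Sox3 and Pou3f1 fell and Pax6 rose by edgeR's quasi-likelihood test, 4 of 7 tested, where 22.6% of all genes were called. With Activin in control siRNA cells 1 of the 7 rose and 2 fell, where 4.83% of all genes were called. Of 4 mesoderm genes tested, 0 were called by edgeR in either comparison, where 0 with SB and 1 with Activin had an unadjusted p under 0.05. DESeq2 called 0 of them with SB and 1 with Activin. The sum of 10 neuron markers was also lower with SB, at 146.9 to 159.8 CPM, and was 229.0 to 253.3 CPM in the other groups. Other sums were higher with SB than with control siRNA alone. The 8 trophoblast genes summed to 286 to 332 CPM, against 187 to 210 CPM. For 6 surface ectoderm genes the sums were 18.5 to 23.3 against 10.7 to 13.2 CPM. By edgeR, 4 of 7 and 2 of 2 tested genes of these lists were called with SB, all higher. The endoderm and erythroid sums were also higher with SB than with control siRNA alone, and the fibroblast sum lower. By edgeR, 1 of 6 endoderm, 0 of 4 erythroid and 2 of 5 fibroblast genes tested were called with SB. The endoderm sum was also higher with Activin in control siRNA cells, at 113 to 133 CPM. It was 97.9 to 113 CPM with SB and 86.8 to 92.6 CPM with control siRNA alone. The part of such cells in the Bcl11 levels was not tested.

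Across all genes tested, 4.83% were called for Activin in control siRNA cells, 22.6% for SB and 38.0% for Activin against SB (edgeR quasi-likelihood, Benjamini-Hochberg adjusted p under 0.05). Split by direction, 2.95% rose and 1.88% fell with Activin, 11.2% rose and 11.3% fell with SB, and 19.0% were higher and 19.0% lower with Activin than with SB. Activin in Vprbp siRNA cells called 6.12%, 3.65% higher and 2.47% lower. Vprbp siRNA called 0.0411%, or 6 genes, both without and with Activin, with 0.0342% higher and 0.00685% lower in each. With libraries paired by number the count without Activin was 18. These shares are the background for the partner genes below, which were listed with earlier results of these data known.

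The genes of the BAF remodelling complex were called about as often as all genes. With SB, 5 of 24 tested subunits were called, 2 higher and 3 lower, a share of 20.8% beside the background of 22.6%. Smarca2, one of its alternative ATPases, rose with SB (11.2 ± 0.8 against 6.15 ± 1.00 CPM, log2 fold change 0.86 ± 0.17, edgeR adjusted p = 0.00069). Pbrm1 also rose, by 0.22 ± 0.06, and Bcl7a and Smarcd1 fell by 0.38 and 0.20 on the log2 scale. Activin in control siRNA cells gave 0 calls among the 24 by edgeR, beside 4.83% of all genes, and 0 by DESeq2. Of these 24, 5 had an unadjusted p under 0.05. The median log2 fold change was 0.038 with SB and -0.023 with Activin, where that of all genes was -0.0047 and -0.0054.

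Among NuRD genes, 2 of 15 were called with SB by edgeR, both lower, or 4 by DESeq2. The edgeR share was 13.3%, beside 22.6% of all genes. The 2 were Mta3, a scaffold subunit, at 156.7 ± 9.4 against 196.7 ± 3.6 CPM (-0.33 ± 0.06, edgeR adjusted p = 0.00056), and the remodeller Chd5 (-0.61 ± 0.20, edgeR adjusted p = 0.038). The call of Chd5 was lost without replicate 3 of control siRNA alone and without any of the 3 SB libraries. Activin in control siRNA cells gave 0 calls among the 15 by either tool, beside 4.83% of all genes by edgeR. Of these 15, 3 had an unadjusted p under 0.05. Against SB, Activin cells had 5 of 15 called (33.3%, beside 38.0% of all genes).

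The COUP-TF receptor genes, whose proteins gave CTIP its name, were higher with SB, where Bcl11a was lower. Nr2f2 rose with SB to 7.40 ± 2.39 CPM, against 1.75 ± 0.27 CPM with control siRNA alone (2.08 ± 0.37, edgeR adjusted p = 0.00038). Nr2f1 rose to 2.32 ± 1.10 CPM, against 0.66 ± 0.32 CPM (1.82 ± 0.46), a call lost without replicate 1 of SB. Nr2f6 rose by 0.34 ± 0.10, a call lost without replicate 1 or 2 of either group. In all, 4 of 12 genes of this list were called with SB (33.3%, beside 22.6% of all genes), with a median log2 fold change of 0.0016. With Activin in control siRNA cells 0 were called (4 at an unadjusted p under 0.05, 1 by DESeq2), beside 4.83% of all genes.

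Genes reported as targets of BCL11A or BCL11B in other tissues were called with SB at 7 of 10 tested, 70% beside 22.6% of all genes, with 5 higher and 2 lower. Id2 and Zbtb16 were known to be higher with SB when the list was drawn up, so the share is not independent evidence. Zbtb16, which BCL11B represses in T cells, was at 13.3 ± 1.7 CPM with SB and 1.88 ± 0.45 CPM with control siRNA alone (2.81 ± 0.37, edgeR adjusted p = 3.9e-05). Id2, an inhibitor of basic helix-loop-helix factors, was at 17.4 ± 0.7 and 4.56 ± 0.94 CPM (1.93 ± 0.24, edgeR adjusted p = 1.2e-05). The cell cycle inhibitor gene Cdkn1c rose (1.18 ± 0.23), as did the survival gene Bcl2l1 (0.58 ± 0.12).

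The embryonic globin genes, the classic targets of BCL11A, were not detectable at this depth, with a highest count of 1 in any library for Hba-x and Hbb-bh1 and of 0 for Hbb-y. Activin in control siRNA cells gave 0 calls among the 10 targets by edgeR, beside 4.83% of all genes, and 1 by DESeq2. Of these 10, 2 had an unadjusted p under 0.05. In Vprbp siRNA cells Activin lowered Id2 (-0.95 ± 0.26, edgeR adjusted p = 0.035), a call lost without 4 of the 6 libraries in turn. The list's median was 0.74 with SB and -0.28 with Activin in control siRNA cells.

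Transcription factors that act with BCL11A or BCL11B in blood cells moved in both directions. With SB, 8 of 16 tested were called (50%, beside 22.6% of all genes), 4 higher and 4 lower. Gata2 rose (15.4 ± 1.9 against 3.28 ± 0.75 CPM, 2.23 ± 0.24, edgeR adjusted p = 1.2e-06). Ebf1, a B cell specification factor, fell to 1.54 ± 0.78 CPM, against 7.30 ± 1.58 CPM (-2.24 ± 0.26, edgeR adjusted p = 4.1e-06). Runx3 fell by 1.35 on the log2 scale and Tcf12 rose by 0.44 ± 0.08.

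With Activin in control siRNA cells 3 of these 16 rose and 0 fell, so that 18.8% were called beside 4.83% of all genes. The 3 were Myb (22.9 ± 1.0 against 12.2 ± 2.4 CPM, 0.90 ± 0.12, edgeR adjusted p = 0.0003), Ebf1 (1.17 ± 0.19) and Tcf7 (0.54 ± 0.11). Myb, Ebf1 and Tcf7 also rose with Activin in Vprbp siRNA cells, by 0.94 ± 0.12, 1.04 ± 0.18 and 0.48 ± 0.11, together with Ikzf1 (1.39 ± 0.39). Tcf7 lost its call without replicate 3 of either group in control siRNA cells, and Ikzf1 lost it without 4 of 6 libraries in turn.

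Of factors known beside BCL11B in cortical neurons, Foxp1 (134.9 ± 19.1 against 236.4 ± 14.0 CPM, -0.81 ± 0.10, edgeR adjusted p = 1.4e-05) and Pou3f1 (25.2 ± 7.9 against 73.3 ± 20.1 CPM, -1.54 ± 0.27) fell with SB, 2 of 10 tested. This share of 20% stood beside 22.6% of all genes. Satb1, a chromatin organiser, rose with Activin in control siRNA cells (0.27 ± 0.07), a call lost without any 1 of the 6 libraries. The deep-layer genes Fezf2 and Tbr1 were too low to test, with at most 10 and 8 counts in a library.

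Over the 6 lists Vprbp siRNA called 0 of 87 genes at either Activin level, by edgeR and by DESeq2 alike. By edgeR only 0.0411% of all genes were called at either level, so 0 of 87 says little about these lists. Of the 87, 7 without Activin and 10 with it had an unadjusted p under 0.05. Ebf1, the blood cell factor with the smallest p without Activin, was at 11.2 ± 2.4 CPM with Vprbp siRNA and 7.30 ± 1.58 CPM with control siRNA (0.61 ± 0.20, edgeR adjusted p = 0.46).

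**Figure D3:**
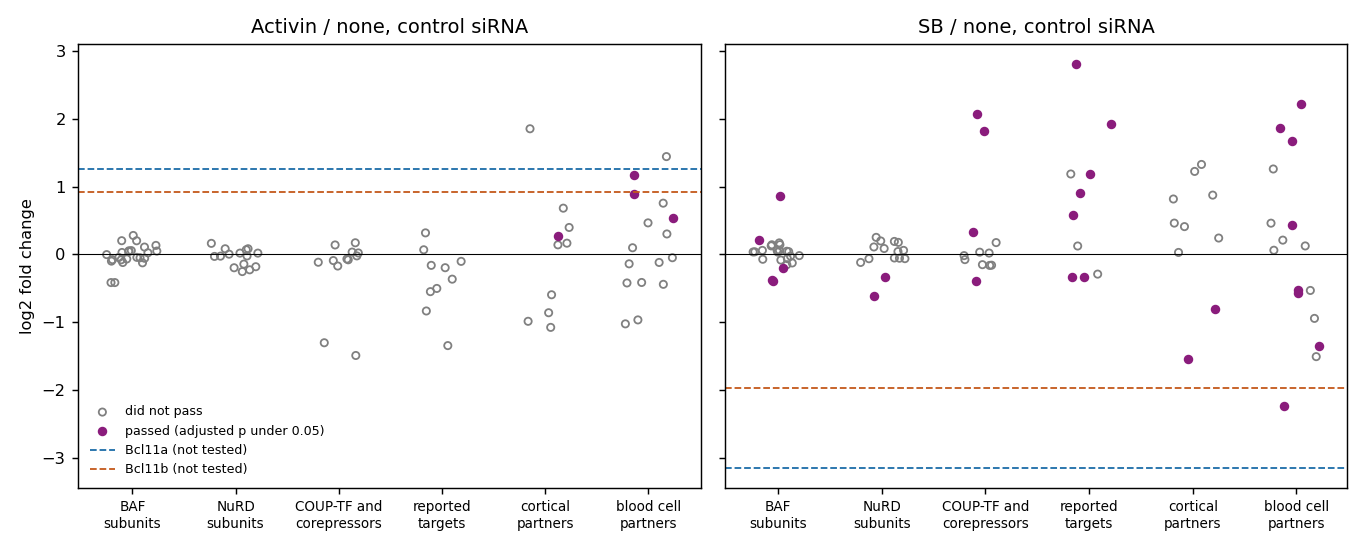
Log2 fold changes of all tested members of 6 lists (points, filled where the edgeR adjusted p was under 0.05) for Activin (left) and SB (right) over no addition in control siRNA cells, with Bcl11a and Bcl11b as dashed lines. Most BAF and NuRD subunits sit close to 0 in both panels (Smarca2 is at 0.86 with SB), while 7 of 10 tested reported targets and 8 of 16 blood cell factors are filled with SB. Of all genes tested, 22.6% were called with SB.

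The chromosomal neighbours of the 2 genes were set beside them. The 5 nearest genes on each side, from the RefSeq gene table on GRCm38, gave 10 neighbours per gene, of which 5 and 7 were expressed enough to test. With Activin in control siRNA cells 0 of 5 around Bcl11a and 0 of 7 around Bcl11b were called by edgeR or by DESeq2. None of them had an unadjusted p under 0.05 (0 and 0). Of all genes, 4.83% were called by edgeR in this comparison, so 0 calls among so few genes says little about them. Papolg, a poly(A) polymerase gene and the nearest tested neighbour of Bcl11a at 181 kb, was at 48.9 ± 3.8 CPM with SB and 50.8 ± 6.1 CPM with control siRNA alone. Setd3, 102 kb from Bcl11b, was at 56.8 ± 4.6 and 57.5 ± 2.2 CPM.

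With SB, where 22.6% of all genes were called, 3 of the 12 neighbours were. Of 5 around Bcl11a, 2 were called, 0610010F05Rik (0.39 ± 0.09) and Pus10 (0.28 ± 0.10), both higher where Bcl11a was lower. Of 7 around Bcl11b, 1 was called, Cyp46a1, at 1.90 ± 0.31 against 3.32 ± 0.56 CPM (-0.80 ± 0.27). Pus10 lost its call without any 1 of the 6 libraries, and Cyp46a1 without 4 of them.

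**Figure D4:**
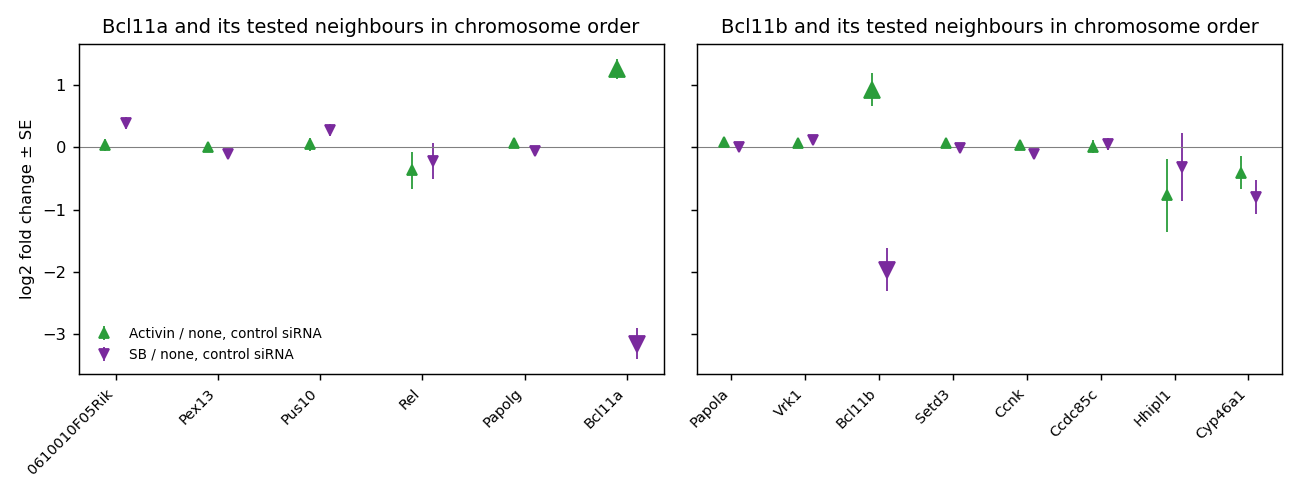
Log2 fold changes with standard errors of Bcl11a (left), Bcl11b (right) and their tested neighbours in chromosome order, for Activin and for SB over no addition in control siRNA cells. The members (large symbols) reach 1.25 and -3.15 for Bcl11a and 0.92 and -1.96 for Bcl11b, and the neighbours nearest to each stay near 0.

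The genes whose profile was most like Bcl11a were ranked by the root mean square difference of log2(CPM + 0.5), each gene centred on its mean, over all 15 libraries and among 12065 other genes whose mean log2 CPM reached 1. Tdgf1, the Nodal co-receptor Cripto, came first at a difference of 0.26, with 558.0, 464.2, 28.2, 281.7 and 207.3 CPM with Vprbp siRNA and Activin, control siRNA and Activin, SB, Vprbp siRNA alone and control siRNA alone. It was followed by the hyaluronan synthase Has2 (0.312), the chondroitin sulfotransferase Chst15 (0.321), Ebf1 (0.335), the growth factor Fgf15 (0.349) and nephrin, Nphs1 (0.352). The mirror image of Bcl11a was nearest in Nfix (0.271), a nuclear factor I gene, which stood at 1.32 CPM with Vprbp siRNA and Activin and at 29.9 CPM with SB. The metallothionein Mt2 (0.403) and the epoxide hydrolase Ephx2 (0.410) came next.

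Around Bcl11b the nearest profile was that of Pmepa1 (0.305), an inhibitor of Smad signalling, at 81.5, 68.7, 12.8, 42.6 and 40.9 CPM over the groups in the same order. The non-coding RNA Platr10 (0.306), the channel gene Tmem63a (0.353), the amino acid transporter Slc6a15 (0.365) and nucleoredoxin, Nxn (0.378), followed. Its mirror image was nearest in Ptgr1 (0.361), the plasminogen activator Plat (0.363) and the transcription factor Sox21 (0.400). Bcl11a and Bcl11b differed from each other by 0.658, which put Bcl11b at rank 39 from Bcl11a and Bcl11a at rank 215 from Bcl11b. These genes were ranked for likeness, so their levels carry no test.

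**Figure D5:**
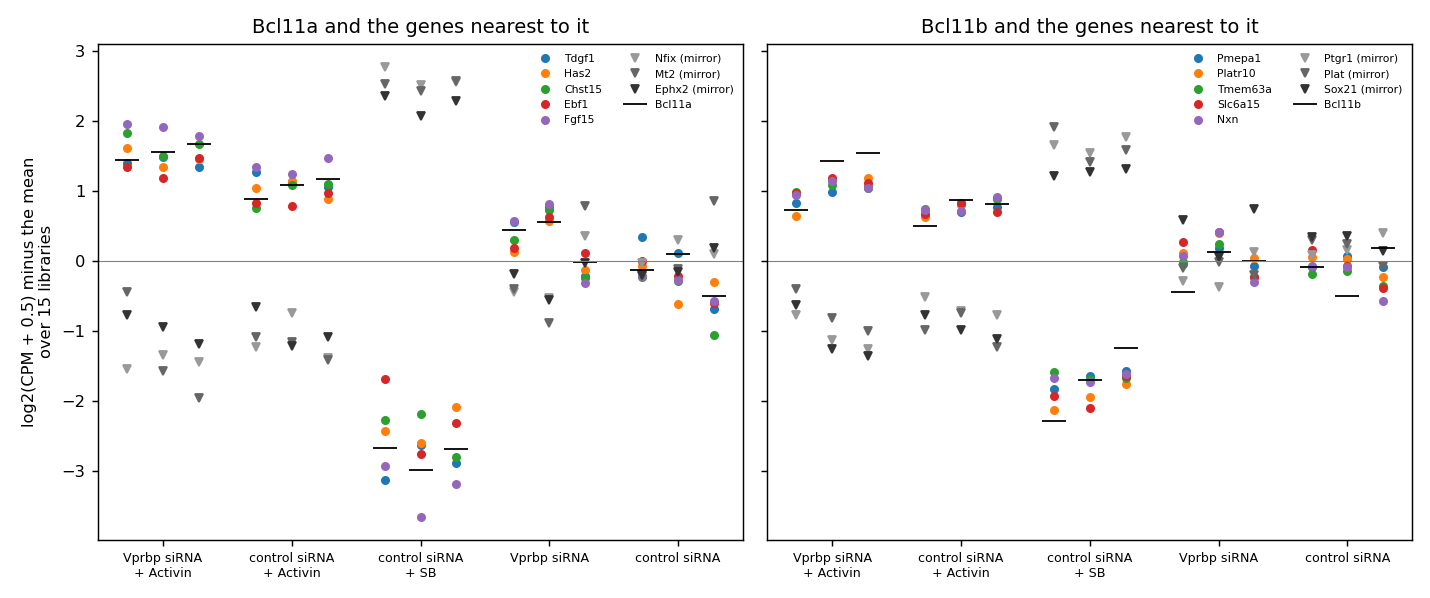
Centred log2(CPM + 0.5) in each of 15 libraries for Bcl11a (left) and Bcl11b (right), drawn as black bars, with the 5 genes of nearest profile (circles) and the 3 of nearest mirror profile (triangles). Circles and bars are lowest in the SB libraries and triangles highest, and the Bcl11b bar of replicate 1 of Vprbp siRNA with Activin lies below those of its replicates.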

How the data were processed

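Per the submitters' processing notes, reads were counted with HTSeq 0.6.1p1 on mm10. The authors deposited raw fragment counts per gene, 1 column per library. For the aligner, annotation and strandedness nothing is stated. HTSeq's 5 tally rows (39.6% to 44.4% of fragments) were left out. Of 24451 genes, 14600 passed filterByExpr (minimum count 10). TMM-scaled CPM and log2 fold changes came from edgeR 4.0.16 (robust glmQLFit, glmQLFTest, R 4.3.3), fitted to 15 libraries with 1 mean per group, Benjamini-Hochberg adjusted over all genes (threshold 0.05). On simulated counts for the SB comparison (14419 genes) it recovered 98.0% of genes changed 4-fold, with 8 false among 146 calls. Smaller changes were simulated too and their recovery is not given here, so the 98.0% does not cover smaller changes. Members and lists were chosen with earlier results of these data known. Named genes were up to 4 called list members of smallest p per comparison (up to 3 where none was called), the neighbours, and the 6 nearest and 3 mirrored profiles, leaving out unnamed gene models; 2 of these genes are not reported here. Alternatives included DESeq2 1.42.0. Deviations of same-numbered libraries correlated at 0.15, 0.22 and 0.43 between Vprbp and control siRNA without Activin, a pairing read from the data alone. No other comparison passed 0.1 at all 3 numbers. Sequences are from RefSeq (GRCm38.p6), protein sequences not used here.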

Additional observations from a re-analysis of the deposited data

How the results depend on the processing

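For SB and for Activin in control siRNA cells, Bcl11b ranged more widely over the alternative fits than Bcl11a. In 14 alternative fits per comparison the log2 differences of Bcl11a ran from -3.30 to -2.99 for SB, from 1.10 to 1.41 for Activin in control siRNA cells, from 0.37 to 0.69 for Vprbp siRNA without Activin and from 0.44 to 0.59 with it. Bcl11b ran from -2.40 to -1.64 for SB and from 0.74 to 1.11 for Activin. For Activin against SB, Bcl11b ran from 2.56 to 3.32 when 1 library was left out, with 3.32 without replicate 3 of SB.

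For Activin in control siRNA cells, 705 genes were called, 1058 with the replicate block, and 265 to 721 with 1 library left out. The lists' 4 calls became 7 without a filter, 9 with DESeq2, 7 with the replicate block, 8 with only the 6 libraries compared, and 2 to 4 with 1 library left out. For Activin in Vprbp siRNA cells, the 894 genes and 8 list calls became 373 and 4 with only the 6 libraries compared, and ranged over 351 to 1167 and 4 to 10 with 1 library left out.

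For Vprbp siRNA without Activin, the 6 calls became 10 without a filter, 30 with DESeq2, 18 with the replicate block, 1 with only the 6 libraries compared, and 76 without the 3 libraries that lay apart (chosen after seeing the data), where 1 list gene was called; leaving out 1 library gave 2 to 37. For Vprbp siRNA with Activin, the 6 calls became 15 without a filter, 78 with DESeq2, 51 with the replicate block, 68 with only the 6 libraries compared (1 list gene), and 205 without those 3 libraries (2 list genes); leaving out 1 library gave 0 to 21. The causes were not tested. The block turned no call of the 60 results on named genes, and none reversed in any fit; 13 of them lost their call in some fit without 1 library, among them Smarcd1 with SB, and Foxp2, Sirt1 and Tcf7 with Activin in Vprbp siRNA cells. Of the 6 genes nearest to Bcl11a and to Bcl11b, 5 and 6 were among the nearest 50 by Pearson correlation, and 6 and 4 with a pseudocount of 2.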
